A study of Homo sapiens with 54 samples.

Results

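Gene expression was compared between 12 tumours that were responding to enzalutamide (ENZS) and 9 tumours of hormonally intact mice (PRE-CX), which together make 21 of the 54 tumours of the series. Members were taken from the labels alone. All tumours grew from LNCaP, a human prostate cancer line of luminal type that depends on androgens. They grew under the skin of male NOD-SCID mice, which lack working T and B lymphocytes. PRE-CX mice had a mock operation when the tumour reached about 200 mm3 and were collected at 1000 mm3. ENZS mice were castrated at that size, received enzalutamide by mouth at 10 mg/kg on 5 days a week once their serum prostate-specific antigen (PSA) started rising again, and were collected when PSA was at its low point under the drug. ENZS thus differed from PRE-CX by castration and by drug, and by the size and age of the tumour at collection, and these cannot be told apart in this comparison. POST-CX (n = 8, collected at the low point after castration without drug) and CRPC (n = 10, regrown after castration without drug) are used only to set values side by side. Each tumour came from its own mouse, numbered in the labels, but all descend from 1 cell line.

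The androgen receptor is a transcription factor that waits in the cytoplasm on chaperones, binds testosterone or dihydrotestosterone, moves to the nucleus and switches on genes such as those of the kallikrein proteases, while it holds others down. Castration removes the testicular hormone. Enzalutamide occupies the receptor's hormone pocket and limits its entry into the nucleus and its binding to DNA, and prostate cells deprived of this signal usually stop dividing.

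Values are transcripts per 1000000 (TPM) of human genes, a relative measure adjusted for transcript length, rescaled so that each tumour sums to 1000000. Differences are ENZS minus PRE-CX on the log2(TPM + 1) scale, which understates changes of genes near 1 TPM. A gene passed at an adjusted p under 0.05 in limma's moderated test with Benjamini-Hochberg adjustment, and was called if it also differed by at least 1 on the log2 scale. "Rose" and "fell" are used only of genes that passed.

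Of 17593 genes tested, 8364 rose (47.5%) and 2386 fell (13.6%), 1840 were called higher (10.5%) and 544 were called lower (3.09%). In 1616 genes (9.19%) all 12 ENZS tumours lay above the PRE-CX range, and in 517 genes (2.94%) all 12 lay below it. The median over all genes was a difference of 0.29, and it was -0.00 when each tumour was centred on its own median, when 4679 genes rose and 4983 fell. Centred counts are therefore given beside the counts of gene lists.

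**Figure D1:**
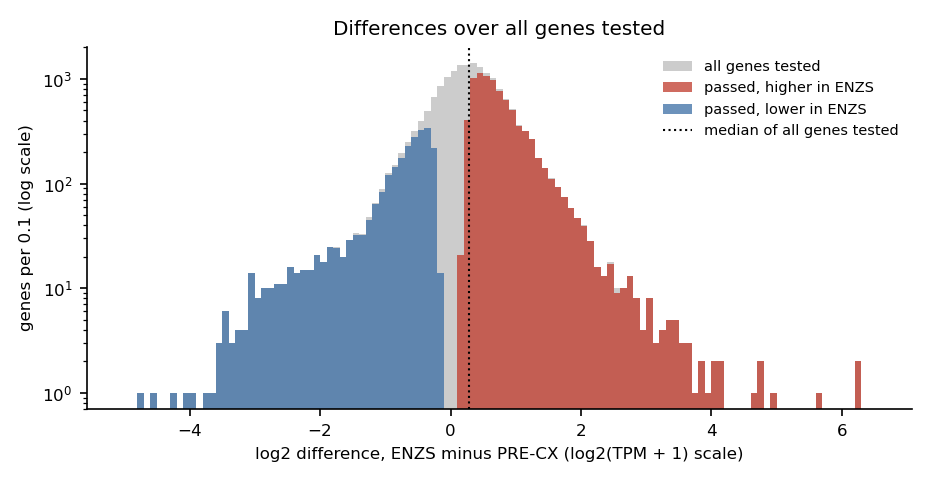
Histogram of the log2 differences (ENZS minus PRE-CX, log2(TPM + 1), bins of 0.1, logarithmic count axis) of the 17593 genes tested. The bulk of genes lies just right of 0, with the median at 0.29, and the right tail reaches 6.25 while the left one ends at -4.70.

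The libraries of ENZS and PRE-CX had similar human TPM totals before rescaling, 87.5% ± 6.86 (SD, n = 12) and 89.6% ± 5.60 (SD, n = 9) of 1000000 (exact two-sided permutation test, p = 0.477), the remainder being mouse transcripts. More human genes reached 1 TPM in ENZS (15578 to 16742, median 16087) than in PRE-CX (14517 to 15466, median 14776), with no overlap (p = 6.80e-06, the smallest this exact permutation test can give). Human symbols of stroma and blood markers, used as a check for reads of the mouse host, summed to 44.0 to 325 TPM in ENZS and 21.0 to 33.3 TPM in PRE-CX, also without overlap (exact permutation p = 6.80e-06). ENZS mouse 80 had the highest sum at 325 TPM, and mouse 79 followed at 139 TPM. LUM and COL3A1 had PRE-CX medians of 0.174 and 0.841 TPM, so they were tested through tumours of other groups, which favours a rise. Of 26 such markers 9 were tested and 7 rose (5 with centring), against 47.5% of all genes. The largest rises were those of LUM (3.04) and COL3A1 (3.01), and VWF fell (-0.98). Among those too low to be tested PDGFRB reached 1.16 TPM, CD34 0.980 TPM, HBA2 0.967 TPM and LYZ 0.951 TPM in their highest tumour, and the others, including COL1A2, PECAM1, PTPRC and HBB, did not reach 0.5 TPM in any of the 21 tumours. The part of host reads in any single gene below was not tested.

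The steroid receptor genes NR3C1 and NR3C2 rose from low levels. NR3C1, the glucocorticoid receptor, which can bind many of the DNA sites that androgen signalling uses, had 0.107, 0.418 and 1.43 TPM (lowest, median and highest) in PRE-CX and 1.5, 3.54 and 10.8 TPM in ENZS (log2 difference 1.78 ± 0.30 (SE), adjusted p = 1.7e-06). Every ENZS tumour was above every PRE-CX tumour. NR3C2, the mineralocorticoid receptor, rose by 1.14. The estrogen receptor gene ESR1 was too low to be tested, with an ENZS median of 0.344 TPM, but reached 19.6 TPM in 1 ENZS tumour.

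The p160 coactivators, which link steroid receptors to histone acetylation, moved the same way. NCOA2 rose from a PRE-CX median of 17.6 to an ENZS median of 49.2 TPM (log2 difference 1.57 ± 0.20 (SE), adjusted p = 3.15e-09), NCOA1 by 1.31 and NCOA3 by 1.22, each without overlap. FKBP4, a chaperone of the receptor, did not pass (log2 difference -0.21, adjusted p = 0.229), and fell with centring (-0.50). In all, 11 of 13 receptors and coregulators tested rose and 0 fell, against 47.5% and 13.6% of all genes. With centring 6 rose and 2 fell.

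Among 14 genes of androgen synthesis and clearance tested, 9 rose and 3 fell (8 and 3 with centring), against 47.5% and 13.6% of all genes. AKR1C3, which makes testosterone from androstenedione, was at 0.0718, 0.213 and 0.778 TPM in PRE-CX and 1.13, 3.18 and 11.6 TPM in ENZS (log2 difference 1.93 ± 0.27 (SE), adjusted p = 3.32e-08). All 12 ENZS tumours were above the PRE-CX range, but at a low level. The glucuronidation genes, which tag androgens for removal, split. UGT2B17 rose by 2.49 and UGT2B15 by 1.82, while UGT2B28 fell by 1.61 and UGT2B11 fell by 1.89 on the log2 scale. These genes are relatives, and how reads were divided among them was not tested. SRD5A1 and SRD5A3, steroid 5-alpha-reductase genes, were level between the groups, with log2 differences of 0.02 and 0.00 (adjusted p = 0.908 and 0.979). CYP11A1, which makes the first steroid from cholesterol, fell (-0.72) from a PRE-CX median of 1.36 TPM.

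Genes that androgens switch on were mostly lower in ENZS, by very unequal amounts. The kallikrein and secretion list had 13 members, of which 11 were tested. Of these 1 rose and 5 fell (1 and 8 with centring, 1 and 3 as deposited), against 47.5% and 13.6% of all genes. KLK2, a kallikrein protease, was at 189.6, 465 and 1307 TPM in PRE-CX and 17, 137 and 251 TPM in ENZS (log2 difference -2.34 ± 0.52 (SE), adjusted p = 0.00012). In 11 of 12 ENZS tumours it was below the PRE-CX range. KLK3, which encodes PSA, was at 2129, 4679 and 6769.6 TPM in PRE-CX and 232, 2803 and 4693 TPM in ENZS (log2 difference -1.09 ± 0.47 (SE), adjusted p = 0.0404). The groups overlapped, with 5 ENZS tumours below the PRE-CX range, and KLK3 remained among the more abundant transcripts. On the values as deposited KLK3 did not pass (adjusted p = 0.111), nor did it without the expression filter (adjusted p = 0.0778) or without any one of ENZS mice 49, 56, 57, 79 and 80 or PRE-CX mice 53, 58, 62, 67 and 112 (adjusted p = 0.0534 to 0.106). Since serum PSA set the day of collection, KLK3 is no independent readout.

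The promoter of KLK3 is shown because it holds a copy of AGAACA, the core of the sites that the androgen receptor binds, in capitals, 170 bases before the transcription start. The bases are the 250 before the start in RefSeq, GRCh38.p14, chr19:50854665-50854914, plus strand.

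KLK3: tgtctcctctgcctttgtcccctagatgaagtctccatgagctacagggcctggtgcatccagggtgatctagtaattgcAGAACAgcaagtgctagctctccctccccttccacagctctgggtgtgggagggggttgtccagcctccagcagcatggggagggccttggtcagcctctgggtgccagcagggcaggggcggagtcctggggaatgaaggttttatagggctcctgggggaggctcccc

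Searched on both strands, AGAACA lay in 12.4% of 27305 such promoters and in 7.68% of the 10972 whose genes were tested. It lay in 11.1% of 9 promoters of the kallikrein list, 5% of 40 of the other androgen-induced genes and 28.6% of 21 of the androgen-repressed genes. A match is a description of letters and not a binding site, and most known androgen receptor sites lie outside this window.

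MSMB, a secreted prostate protein, fell by 1.77 ± 0.39 in log2 units (SE), and CREB3L1, a membrane-bound transcription factor of secretory cells, fell from a PRE-CX median of 11.1 to an ENZS median of 0.0543 TPM (log2 difference -3.27 ± 0.44 (SE), adjusted p = 1.62e-08). KLK4, another kallikrein protease, did not pass (log2 difference 0.54, adjusted p = 0.0533), nor did ACPP, prostatic acid phosphatase (0.53), AZGP1 (-1.01), KLK15 (-0.30) and SPDEF (-0.24). KLK4 passed without ENZS mouse 49 or 57 or PRE-CX mouse 58 or 62 (adjusted p = 0.00703 to 0.0401), and AZGP1 without ENZS mouse 49 or PRE-CX mouse 58 or 62 (adjusted p = 0.0131 to 0.0492). With centring AZGP1, KLK15 and SPDEF fell. PLA2G2A, a secreted phospholipase, went the other way, at 34.6, 84.7 and 259 TPM in PRE-CX and 43.4, 627 and 2706 TPM in ENZS (log2 difference 2.35 ± 0.65 (SE), adjusted p = 0.00173). Its ENZS values spanned a wide range and 8 of 12 were above all PRE-CX tumours.

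Of 58 further androgen-induced genes, 37 fell and 5 rose, 26 were called lower against 3.09% of all genes, and in 11 all 12 ENZS tumours were below the PRE-CX range. With centring 45 fell and 3 rose. FKBP5, a chaperone that returns the receptor to its hormone-binding state and a classic androgen target, was at 91.8, 152 and 423 TPM in PRE-CX and 10.3, 19 and 55.2 TPM in ENZS (log2 difference -2.89 ± 0.30 (SE), adjusted p = 4.05e-11). TMPRSS2, a membrane protease, was at 359, 452 and 975 TPM and 69.9, 135 and 430.2 TPM (log2 difference -1.68 ± 0.29 (SE), adjusted p = 2.34e-06), with 9 ENZS tumours below the PRE-CX range. FKBP5 separated the groups completely and TMPRSS2 did not.

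The deepest falls on that list were in ORM1, SLC43A1, HPGD and SLC45A3. ORM1, an acute-phase plasma glycoprotein, was at 4.32, 35.8 and 74.2 TPM in PRE-CX and 0, 0.143 and 0.621 TPM in ENZS (log2 difference -4.70 ± 0.23 (SE), adjusted p = 3.09e-23). Its close copy ORM2 fell by 3.45, and reads between the copies may be divided uncertainly. SLC43A1, a transporter of large neutral amino acids, was at 22.1, 37.9 and 117 TPM and 1.02, 1.86 and 6.02 TPM (log2 difference -3.58 ± 0.26 (SE), adjusted p = 4.39e-16). HPGD, which inactivates prostaglandins, fell by 3.49 ± 0.25 (SE). All 12 ENZS tumours were below the PRE-CX range for each of these genes. SLC45A3 (prostein), a prostate-restricted transporter, was at 121, 161 and 268 TPM in PRE-CX and 2.76, 9.92 and 122 TPM in ENZS (log2 difference -3.43 ± 0.41 (SE), adjusted p = 1.26e-09). The highest ENZS value came from mouse 101 and reached into the PRE-CX range, and the other 11 were below it.

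The 5 members that rose were AMIGO2 (4.11), TRIB1 (2.23), STEAP2 (1.44), BMPR1B (0.70) and STEAP1 (0.57). AMIGO2, a cell adhesion protein, was at 0.0631, 0.256 and 0.786 TPM in PRE-CX and 9.03, 20.8 and 35.9 TPM in ENZS. STEAP1 and STEAP2 encode membrane metalloreductases of prostate cells, and their relative STEAP4 fell by 2.69. BMPR1B and STEAP1 did not pass on the values as deposited (adjusted p = 0.0915 and 0.0594) or with centring (adjusted p = 0.135 and 0.0829). Members that did not pass were ALDH1A3, EAF2, ERRFI1, INPP4B, KLF5, KRT18, LRIG1, NAMPT, PART1, PLPP1, PTGER4, RAB4A, SGK1, TSC22D3, ZBTB10 and ZBTB16, with log2 differences between -0.45 (PART1) and 0.30 (TSC22D3). Leaving out a tumour made PART1 (without ENZS mouse 17), PTGER4 (ENZS mouse 6 or PRE-CX mouse 111), PLPP1 (ENZS mouse 101 or PRE-CX mouse 62), ERRFI1 (PRE-CX mouse 111) and KRT18 (ENZS mouse 49 or PRE-CX mouse 9) pass as lower. With centring ERRFI1, INPP4B, KRT18, PART1, PLPP1, PTGER4, RAB4A and ZBTB10 fell. FKBP5, SGK1, TSC22D3 and ZBTB16 are also known targets of the glucocorticoid receptor, and of these only FKBP5 passed.

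**Figure D2:**
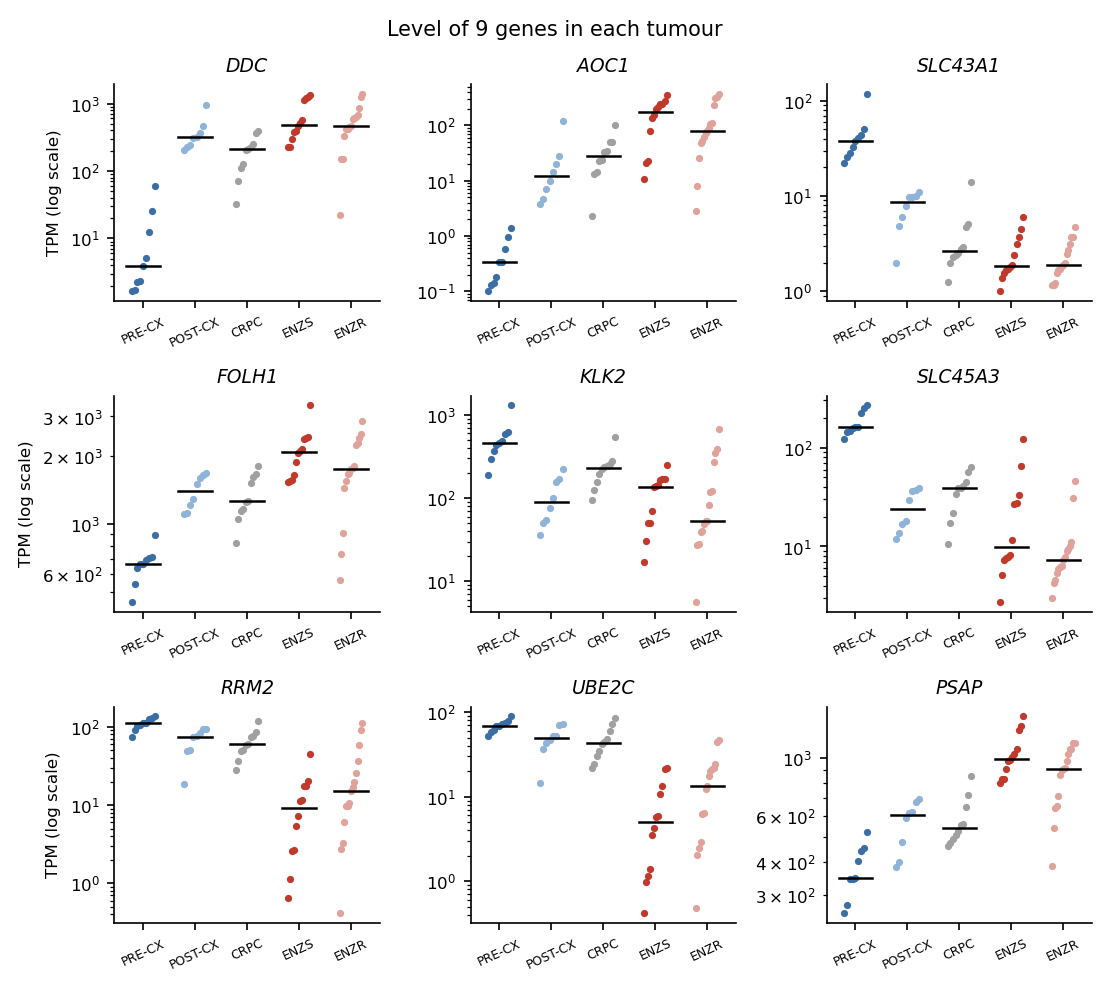
TPM of DDC, AOC1, SLC43A1, FOLH1, KLK2, SLC45A3, RRM2, UBE2C and PSAP in every tumour of the 5 groups, of which ENZR (n = 15, collected on return of PSA or tumour growth under enzalutamide) is plotted for context only (1 point per tumour, logarithmic axis, bar at the group median). ENZS and PRE-CX points are apart for DDC, AOC1, SLC43A1, FOLH1, RRM2, UBE2C and PSAP, while 1 ENZS point each of KLK2 and SLC45A3 reaches into the PRE-CX range.

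Genes that androgens hold down held the largest rises of the whole comparison. DDC, which makes dopamine and serotonin from their amino acid precursors, was at 1.68, 3.88 and 60.3 TPM in PRE-CX and 226, 485 and 1357 TPM in ENZS (log2 difference 6.25 ± 0.52 (SE), adjusted p = 5.9e-14). AOC1, a secreted diamine oxidase that degrades histamine and putrescine, was at 0.103, 0.337 and 1.42 TPM in PRE-CX and 10.7, 175 and 348 TPM in ENZS (log2 difference 6.25 ± 0.64 (SE), adjusted p = 2.26e-11). Neither gene overlapped between the groups. OPRK1, the kappa opioid receptor and a known androgen-repressed gene, was at 0.556, 0.936 and 4.88 TPM in PRE-CX and 16.2, 178 and 230 TPM in ENZS (log2 difference 5.66 ± 0.45 (SE), adjusted p = 7.54e-15). ATP1B1, the beta subunit of the sodium pump, was at 2.71, 17.9 and 83.6 TPM and 354, 765 and 1203 TPM (log2 difference 4.94 ± 0.44 (SE), adjusted p = 5.34e-13). LRRN1, a leucine-rich membrane protein of neurons, rose by 4.61 ± 0.32 (SE), and the protocadherin genes PCDH11X by 4.76 and PCDH11Y by 4.72. The last pair is nearly identical in sequence, so the share of each is uncertain.

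Of 29 androgen-repressed genes tested, of 31 listed, 19 rose, 17 of them called, against 10.5% of all genes called higher, and 5 fell (18 and 5 with centring). Their summed level was 1028, 1315 and 2031 TPM in PRE-CX and 2980.1, 4775 and 8741 TPM in ENZS, without overlap. MME (neprilysin), a peptidase of luminal cells, was at 311, 456 and 633 TPM in PRE-CX and 842, 1397 and 4350.1 TPM in ENZS (log2 difference 1.65 ± 0.44 (SE), adjusted p = 0.0012). SERPINI1, a neuronal serine protease inhibitor, rose by 3.25 and BCHE, butyrylcholinesterase, by 3.49. The members that fell were DPP4 (-3.23), a membrane peptidase, HES6 (-2.68), a neural transcription factor, MYC (-1.69), UGT2B11 (-1.89) and UGT2B28 (-1.61). MYC, a driver of growth and ribosome production, was at 65, 114 and 146 TPM in PRE-CX and 7.38, 37.3 and 65.5 TPM in ENZS, with 11 of 12 below the PRE-CX range. CAMK2N1 (0.80), ETV1 (-0.29), PEG3 (-0.77), TRNP1 (0.42) and UGT2B10 (-0.32) did not pass. CAMK2N1 passed without ENZS mouse 45, 56, 57 or 80 or PRE-CX mouse 53 or 58 (adjusted p = 0.0126 to 0.0493), PEG3 passed without ENZS mouse 101 (adjusted p = 0.0391), and UGT2B11 did not pass without PRE-CX mouse 53 (adjusted p = 0.0705).

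Other genes among the largest differences were on neither androgen list. GASK1B, a secreted kinase relative, rose by 4.11, and SYNE1, a giant protein that ties the nucleus to the cytoskeleton, was at 0.197, 0.407 and 0.956 TPM in PRE-CX and 4.71, 25.9 and 153 TPM in ENZS (log2 difference 4.09 ± 0.56 (SE), adjusted p = 2.76e-08). LOX, the lysyl oxidase that crosslinks collagen, was at 9.66, 33.3 and 64.1 TPM in PRE-CX and 0.0233, 0.236 and 2.21 TPM in ENZS (log2 difference -4.57 ± 0.24 (SE), adjusted p = 8.28e-22). ST6GALNAC1, which makes the sialyl-Tn glycan, fell by 3.94 ± 0.21 (SE), also without overlap. AL589182.1 (-4.25) and the prostate noncoding RNA PSLNR (-4.03) fell with 1 ENZS tumour each inside the PRE-CX range. TMSB15A, a thymosin that binds actin monomers, fell by 3.52 ± 0.40 (SE), and ANGPT2, a secreted ligand of the endothelial TIE2 receptor, fell by 3.65 ± 0.53 (SE), with the highest ENZS value of ANGPT2 at 119 TPM above the PRE-CX median of 103 TPM.

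Markers of the luminal lineage were split. FOLH1 (prostate-specific membrane antigen), a target of imaging and therapy, was at 453, 666 and 896 TPM in PRE-CX and 1540.5, 2090.4 and 3362 TPM in ENZS, without overlap (log2 difference 1.64 ± 0.19 (SE), adjusted p = 5.12e-10). CDH1, E-cadherin, was at 107, 257 and 373 TPM and 385, 467 and 818 TPM (log2 difference 1.07 ± 0.19 (SE), adjusted p = 2.85e-06), and GATA2 (0.83) and GRHL2 (0.87), transcription factors of this lineage, rose. FOXA1, the pioneer factor that opens chromatin for the androgen receptor, rose by 0.45 and HOXB13 by 0.51, but neither passed with centring (adjusted p = 0.137 and 0.296) or on the values as deposited (adjusted p = 0.173 and 0.203). The keratins KRT8 (-0.20) and KRT18 (-0.21) did not pass, but fell with centring (-0.50 each), KRT8 also without PRE-CX mouse 111 (adjusted p = 0.0208), and KRT19 fell, from a median of 13.7 to 2.61 TPM. SLC45A3, described above, is also on the luminal list and had its lowest difference (-3.43). Of 20 luminal genes tested 11 rose and 5 fell, against 47.5% and 13.6% of all genes. With centring the balance turned to 4 that rose and 7 that fell.

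Of 35 basal, neuroendocrine and mesenchymal genes 11 were high enough to be tested. Among these 6 rose and 2 fell (5 and 2 with centring), against 47.5% and 13.6% of all genes. The summed level of the list was 125, 188 and 319 TPM in PRE-CX and 199, 595 and 1036 TPM in ENZS, with overlap. Among those not tested the basal genes KRT5 and TP63 and the neuroendocrine gene CHGA did not reach 0.5 TPM in any of the 21 tumours, while SCG2, secretogranin II, reached 3.15 TPM in its highest ENZS tumour. SYP, synaptophysin, rose from 0.636, 1.11 and 1.46 TPM to 1.85, 2.41 and 3.16 TPM (log2 difference 0.70 ± 0.10 (SE), adjusted p = 4.69e-08), a low level. NTS, the neuropeptide neurotensin, rose by 2.79. Among mesenchymal genes FN1, fibronectin, rose by 2.63 and VIM, vimentin, by 2.20, beside the rise of the stroma markers given above. SNAI2, a repressor of epithelial genes, fell (log2 difference -1.99 ± 0.17 (SE), adjusted p = 9.46e-14) and so did TWIST1 (-1.48).

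The cell cycle gave the most uniform pattern. Every one of the 51 mitosis genes tested fell, 50 of them called, against 3.09% of all genes called lower, and in 48 all 12 ENZS tumours were below the PRE-CX range. Their summed level was 1429.7, 1988 and 2467 TPM in PRE-CX and 210.1, 323 and 823 TPM in ENZS, a gap with no overlap, and the highest ENZS sum came from mouse 45. UBE2C, the ubiquitin-conjugating enzyme of the anaphase-promoting complex, was at 52.6, 69.5 and 89.3 TPM in PRE-CX and 0.424, 5.01 and 21.8 TPM in ENZS (log2 difference -3.59 ± 0.47 (SE), adjusted p = 7.53e-09). BIRC5 (survivin), of the chromosomal passenger complex, fell by 3.48 ± 0.47 (SE), CCNB2, a mitotic cyclin, fell by 3.31 ± 0.40 (SE), and PLK1, the kinase that drives entry into mitosis, fell by 2.98 ± 0.38 (SE). CCNB2 was at 36.3, 58.3 and 66.6 TPM in PRE-CX and 0.794, 4.73 and 15.5 TPM in ENZS. FOXM1, a transcription factor of these genes, fell by 2.95 ± 0.39 (SE) and AURKB, the kinase of the passenger complex, fell by 3.18 ± 0.37 (SE). MKI67, the proliferation antigen Ki-67, was at 5.04, 13.7 and 25.8 TPM in PRE-CX and 0.359, 1.71 and 5.83 TPM in ENZS (log2 difference -2.33 ± 0.30 (SE), adjusted p = 4.21e-09), with 11 of 12 below the PRE-CX range. BUB3, a checkpoint protein with further uses outside mitosis, fell least (-0.38), and did not pass on the values as deposited (adjusted p = 0.173). In a whole tumour, fewer dividing cells and less RNA of these genes per cell cannot be told apart.

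Promoters of CCNB2, CENPA and PLK1 are shown because they hold both motifs known from mitotic genes, in capitals. They are TTTGAA, the cell cycle homology element read by the DREAM and MuvB complexes, and CCAAT, bound by NF-Y, or ATTGG where it lies on the other strand. These are again the 250 bases before the start in RefSeq, GRCh38.p14, at chr15:59104896-59105145, chr2:26785806-26786055 and chr16:23678639-23678888, all on the plus strand. CENPA, the centromeric histone, fell by 2.57.

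CCNB2: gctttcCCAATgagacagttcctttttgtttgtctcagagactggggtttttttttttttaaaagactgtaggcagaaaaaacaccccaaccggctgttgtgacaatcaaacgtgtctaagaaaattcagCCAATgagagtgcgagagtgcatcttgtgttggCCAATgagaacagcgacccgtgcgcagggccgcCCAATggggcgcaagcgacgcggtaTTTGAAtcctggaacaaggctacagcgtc
CENPA: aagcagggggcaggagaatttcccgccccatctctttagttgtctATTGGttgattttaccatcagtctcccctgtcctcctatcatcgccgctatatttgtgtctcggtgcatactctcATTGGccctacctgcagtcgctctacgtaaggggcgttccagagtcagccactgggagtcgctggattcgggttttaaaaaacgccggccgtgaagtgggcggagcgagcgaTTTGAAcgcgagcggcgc
PLK1: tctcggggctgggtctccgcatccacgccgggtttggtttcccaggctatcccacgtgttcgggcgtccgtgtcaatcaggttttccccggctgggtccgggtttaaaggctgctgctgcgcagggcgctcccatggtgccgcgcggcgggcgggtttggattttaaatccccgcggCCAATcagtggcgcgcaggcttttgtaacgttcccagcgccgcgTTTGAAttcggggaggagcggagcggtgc

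The element TTTGAA begins 29, 18 and 29 bases before the start in CCNB2, CENPA and PLK1. Searched on both strands, it lay in 50% of the 42 mitosis promoters found, in 2.56% of 39 DNA replication promoters, in 8.41% of the 10972 promoters of tested genes and in 13.6% of all 27305. CCAAT lay in 76.2% of the mitosis promoters, 53.8% of the DNA replication promoters, 35.4% of those of tested genes and 33% of all. These shares describe sequence only.

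DNA replication genes fell nearly as uniformly, 40 of 46, with 1 that rose (44 and 0 with centring), against 13.6% and 47.5% of all genes. RRM2, the cell cycle regulated subunit of ribonucleotide reductase, was at 75, 111 and 137 TPM in PRE-CX and 0.641, 9.18 and 45.6 TPM in ENZS (log2 difference -3.70 ± 0.52 (SE), adjusted p = 3.88e-08). RRM1, its stable partner subunit, fell by only 0.41, and did not pass on the values as deposited (adjusted p = 0.209). TYMS, thymidylate synthase, was at 95.7, 142 and 171 TPM in PRE-CX and 4.49, 16.5 and 69.6 TPM in ENZS (log2 difference -3.04 ± 0.41 (SE), adjusted p = 2.06e-08). All of MCM2 to MCM7, the replicative helicase, fell, from -0.74 (MCM3) to -1.60 (MCM5), while the licensing factors CDC6 (-2.54) and CDT1 (-2.14) and the helicase activator CDC45 (-2.99) fell further. RPA2, of the single-strand binding complex, was the member that rose (0.22, adjusted p = 0.0149), and its difference was -0.07 with centring. POLA1 (-0.25), CHAF1B (-0.23), POLE (-0.13), DUT (-0.02) and RPA1 (0.20) did not pass. With centring POLA1, CHAF1B, POLE and DUT fell, and POLA1 also without PRE-CX mouse 58 (adjusted p = 0.0220).

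**Figure D3:**
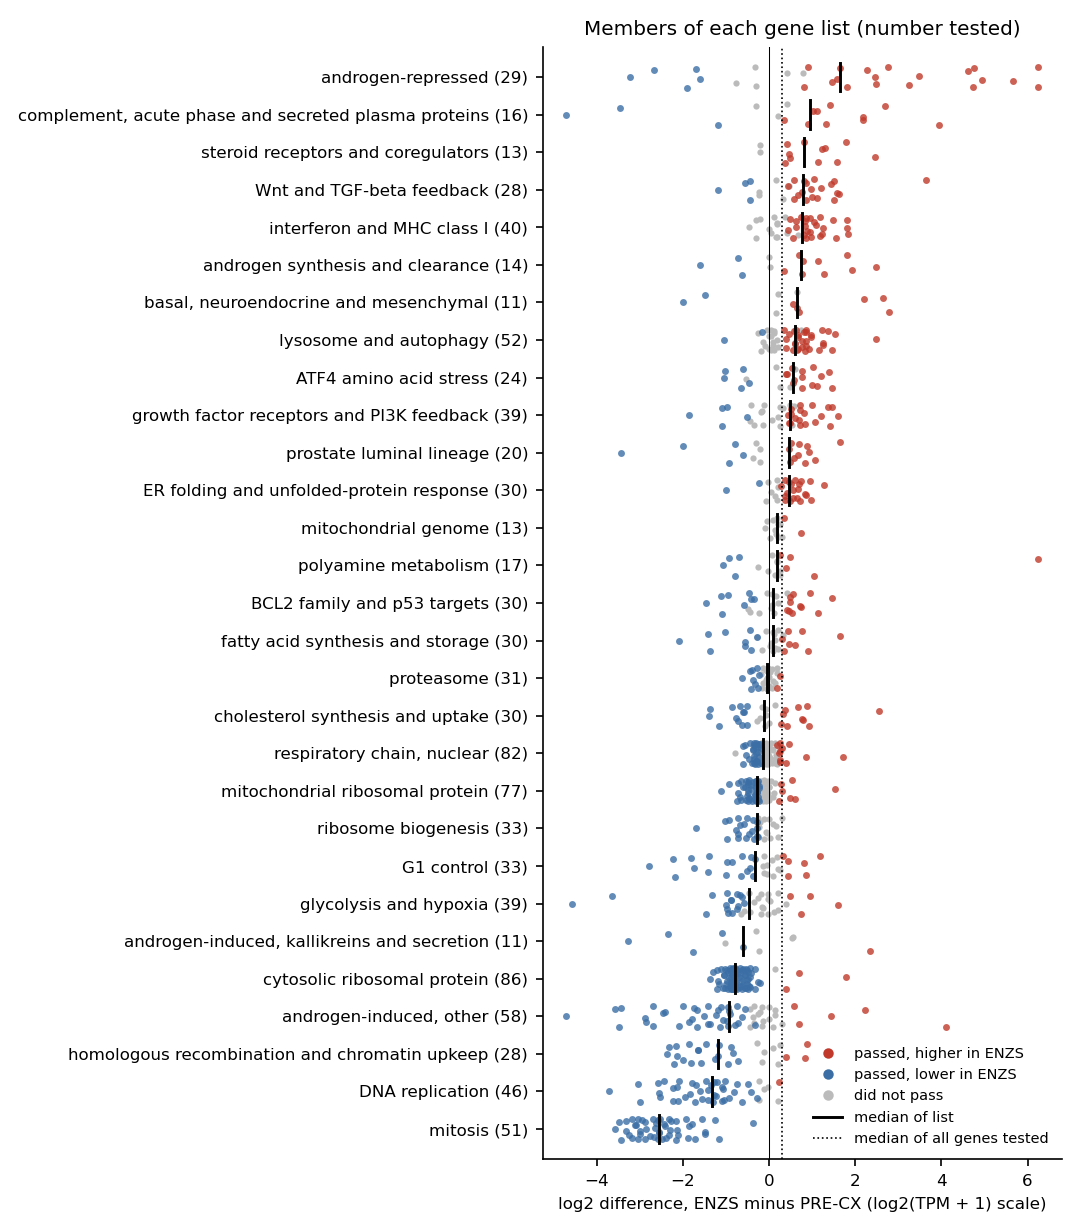
Log2 differences (ENZS minus PRE-CX) of the members of each gene list, 1 point per gene, red where the gene rose, blue where it fell and grey where it did not pass, with a black bar at the list's median and a dotted line at the median of all genes. Mitosis (-2.55) and DNA replication (-1.33) have the lowest medians and androgen-repressed genes (1.65) the highest.

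Upstream of these genes, 17 of 33 G1 regulators fell and 6 rose (19 and 2 with centring), against 13.6% and 47.5% of all genes. E2F1 (-2.18), E2F2 (-1.41), E2F7 (-1.73) and E2F8 (-1.81) fell, as did the kinase CDK2 (log2 difference -1.39 ± 0.15 (SE), adjusted p = 1.25e-10) and CCNE1, its cyclin (-0.85). CDKN3, a phosphatase of CDK1 and CDK2, fell by 2.80. CCND1, cyclin D1, had 55.1, 94 and 133 TPM in PRE-CX and 77.6, 98.1 and 149 TPM in ENZS and did not pass (0.19, adjusted p = 0.342), and CDKN1A, the p21 inhibitor, had 16.1, 52.1 and 68.4 TPM and 13.3, 47.5 and 102 TPM and did not pass (0.06, adjusted p = 0.893). RBL2, the pocket protein p130 of quiescent cells, rose (log2 difference 0.85 ± 0.13 (SE), adjusted p = 4.28e-07), and RB1 rose by 0.44, though not with centring (adjusted p = 0.282). CDKN2B, the p15 inhibitor, rose by 1.18 (adjusted p = 0.00437), and the adjusted p was 0.0536 without ENZS mouse 80 and PRE-CX mouse 111.

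Of 28 genes of homologous recombination and chromatin upkeep 19 fell and 3 rose (22 and 1 with centring), against 13.6% and 47.5% of all genes. BRCA1 was at 7.91, 14.1 and 28.2 TPM in PRE-CX and 1.19, 2.25 and 5.79 TPM in ENZS (log2 difference -2.16 ± 0.29 (SE), adjusted p = 1.12e-08), and BRCA2 fell by 1.66. EZH2, the methyltransferase of Polycomb complex PRC2, fell (-0.96) while EZH1, its relative in resting cells, rose (0.84). BARD1, the partner of BRCA1, rose (0.89, adjusted p = 0.00691), but the adjusted p was 0.0659 on the values as deposited and 0.0557 with centring.

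**Figure D4:**
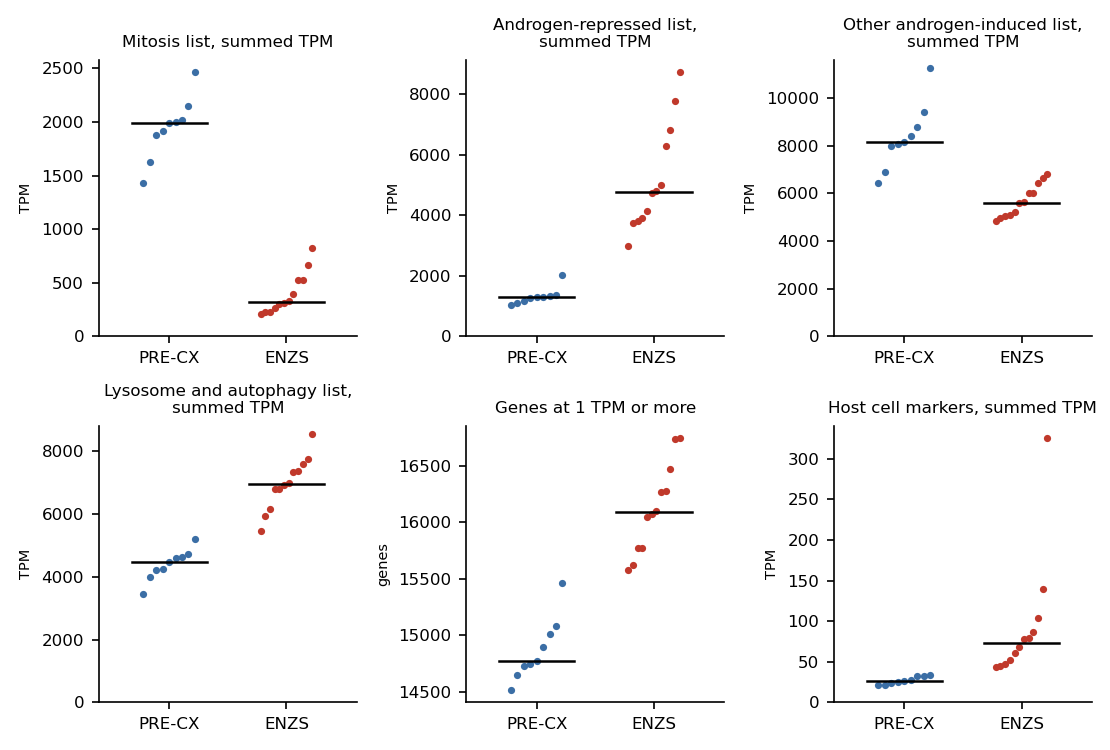
Summed TPM of 4 gene lists, the number of genes at 1 TPM or more and the summed TPM of the host markers in each PRE-CX and ENZS tumour (1 point per tumour, bar at the median). The mitosis sum, the androgen-repressed sum, the lysosome and autophagy sum, the number of genes and the host markers do not overlap between the groups, and the androgen-induced sum overlaps slightly.

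Receptors and ligands of growth factor signalling showed 19 of 39 genes that rose and 5 that fell, shares close to the 47.5% and 13.6% of all genes, which became 12 and 11 with centring. ERBB2 (HER2) was at 42.4, 74.2 and 111 TPM in PRE-CX and 93.9, 175 and 307 TPM in ENZS (log2 difference 1.37 ± 0.19 (SE), adjusted p = 4.35e-08), with 11 of 12 above the PRE-CX range. HBEGF (1.59) and BTC (1.41), ligands of this receptor family, rose, while ERBB3 did not pass (-0.19, adjusted p = 0.186) but fell with centring (-0.48, adjusted p = 1.96e-05). MET, the receptor of hepatocyte growth factor, was at 0.0851, 0.109 and 0.55 TPM in PRE-CX and 0.366, 1.46 and 11.6 TPM in ENZS (log2 difference 1.19 ± 0.28 (SE), adjusted p = 0.00025). IGF1R, the receptor of insulin-like growth factor 1, was at 2.17, 15 and 26.4 TPM and 1.04, 2.26 and 14.7 TPM (log2 difference -1.86 ± 0.29 (SE), adjusted p = 3.3e-07), and 6 of 12 ENZS tumours were below the PRE-CX range. FGFR1 rose (1.06) and FGFR3 fell (-1.10). PIK3CA, a catalytic subunit of PI3 kinase, rose (log2 difference 0.99 ± 0.15 (SE), adjusted p = 1.58e-07), as did the regulatory subunit gene PIK3R3 (0.73) and FOXO3 (0.70), a transcription factor that PI3 kinase signalling holds out of the nucleus.

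Many genes of the secretory route and the lysosome rose, where 47.5% of all genes rose and 13.6% fell. Of 30 genes of protein folding in the endoplasmic reticulum 21 rose and 2 fell (13 and 5 with centring). HSPA5 (BiP), the main chaperone there, was at 139, 191 and 258 TPM in PRE-CX and 297, 349.6 and 587 TPM in ENZS (log2 difference 0.97 ± 0.14 (SE), adjusted p = 4.98e-08). ATF6 (0.85) and EIF2AK3 (0.84), sensors of unfolded protein, and PDIA3 (0.75), a disulfide isomerase, rose with no overlap, while PDIA5 fell (-0.99). Of 24 genes of the ATF4 amino acid response 14 rose and 5 fell (7 and 6 with centring). With centring 4679 and 4983 of all 17593 genes rose and fell, shares close to those of this list. PSAT1, of serine synthesis, was at 45, 69.4 and 111 TPM and 143, 176 and 283 TPM (log2 difference 1.38 ± 0.19 (SE), adjusted p = 2.25e-08), and CHAC1, which degrades glutathione, rose by 1.46, but SHMT2, of mitochondrial folate metabolism, fell (-1.05).

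Of 52 lysosome and autophagy genes 32 rose and 2 fell (26 and 11 with centring), and in 13 all 12 ENZS tumours were above the PRE-CX range, against 9.19% of all genes. Summed, they came to 3452, 4477 and 5188 TPM in PRE-CX and 5458, 6944 and 8539.6 TPM in ENZS, without overlap. PSAP, the precursor of the saposins, was at 258, 349.8 and 524 TPM in PRE-CX and 798, 992 and 1436 TPM in ENZS (log2 difference 1.46 ± 0.15 (SE), adjusted p = 3.41e-11). CTSB, the protease cathepsin B, was at 80.2, 144 and 212 TPM and 256, 426 and 593 TPM (log2 difference 1.54 ± 0.18 (SE), adjusted p = 8.01e-10). LAMP2, a structural membrane protein of the lysosome, rose by 1.24 ± 0.12 (SE) and IDS, a sulfatase, by 1.37 ± 0.11 (SE). The transcription factor gene TFE3 rose too (0.77). WIPI1, of autophagosome formation, fell (-1.05).

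Of 40 interferon-induced and MHC class I genes 26 rose and 0 fell (20 and 3 with centring), against 47.5% and 13.6% of all genes. Of these 40, 11 were called higher, against 10.5% of all genes. MX1, an antiviral GTPase, was at 1.19, 1.95 and 3.45 TPM in PRE-CX and 5.28, 9.14 and 15.2 TPM in ENZS (log2 difference 1.80 ± 0.20 (SE), adjusted p = 1.74e-10). HLA-B, which presents peptides to T cells, was at 62.5, 71.6 and 99.7 TPM and 73.8, 303 and 435 TPM (log2 difference 1.83 ± 0.29 (SE), adjusted p = 6.43e-07), with 11 of 12 above the PRE-CX range. IFIT2 (1.81), IFI35 (1.48), HLA-E (1.55) and HLA-C (1.22) rose, and B2M, the light chain that pairs with each HLA heavy chain, had a difference of 0.00 (adjusted p = 0.99). HLA genes resemble each other, so reads may be divided uncertainly among them.

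Of 16 complement, acute-phase and plasma protein genes 10 rose and 3 fell (8 and 4 with centring), against 47.5% and 13.6% of all genes. C1R, a protease of the complement start, was at 2.51, 5.17 and 8.94 TPM in PRE-CX and 17.1, 42.4 and 55.9 TPM in ENZS (log2 difference 2.68 ± 0.27 (SE), adjusted p = 1.11e-11), and CP, ceruloplasmin, was at 0.0962, 0.227 and 0.747 TPM and 1.34, 24 and 385 TPM (log2 difference 3.95 ± 0.75 (SE), adjusted p = 1.18e-05). Both were above the PRE-CX range in all 12 tumours, and the ENZS values of CP were widely spread. CLU (clusterin), a secreted chaperone, rose by 2.18. ORM1 and ORM2, named above, and APOC1 fell.

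Of 28 genes of Wnt and TGF-beta feedback 19 rose and 4 fell (15 and 5 with centring), against 47.5% and 13.6% of all genes. APCDD1, a membrane inhibitor of Wnt signalling, was at 0.849, 1.78 and 3.06 TPM in PRE-CX and 6.49, 31.7 and 149 TPM in ENZS (log2 difference 3.64 ± 0.42 (SE), adjusted p = 3.43e-10). ZNRF3, which removes Wnt receptors, rose by 1.11 ± 0.15 (SE), SMAD3, a carrier of the TGF-beta signal, by 1.50 ± 0.18 (SE), and SMAD7, its feedback inhibitor, by 1.58 ± 0.21 (SE). All 12 ENZS tumours were above the PRE-CX range for each of these genes. PMEPA1, an androgen-induced inhibitor of TGF-beta signalling, fell (-1.20).

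Survival genes were split, 11 of 30 rose and 8 fell (5 and 13 with centring), against 47.5% and 13.6% of all genes. BCL2, which blocks the mitochondrial path of cell death, was at 0.622, 0.794 and 1.95 TPM in PRE-CX and 1, 3.83 and 5.66 TPM in ENZS (log2 difference 1.13 ± 0.15 (SE), adjusted p = 1.48e-08), and its relative BCL2L2 rose by 0.95. BAX, which opens the mitochondrial membrane, fell (log2 difference -0.96 ± 0.18 (SE), adjusted p = 1.05e-05). The p53 targets GDF15 (-1.46), TNFRSF10B (-1.09) and DDB2 (-1.12) fell, and SESN1, another p53 target, rose (1.47).

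Metabolic lists held genes that rose and genes that fell, and their balance depended on the scale. Among all genes 47.5% rose and 13.6% fell, and with centring 4679 and 4983 of 17593 did. In each list below a larger share fell and a smaller share rose than of all genes, on both scales. Of 39 glycolysis and hypoxia genes 17 fell and 4 rose (22 and 3 with centring). LDHA, lactate dehydrogenase A, was at 939, 1557 and 3315 TPM in PRE-CX and 205, 516 and 3124 TPM in ENZS (log2 difference -1.47 ± 0.38 (SE), adjusted p = 0.000867), with overlapping ranges. EPAS1 (HIF-2 alpha), an oxygen-regulated transcription factor, rose (1.60). Of 30 cholesterol genes 10 rose and 12 fell (6 and 19 with centring), including EBP, a sterol isomerase (-1.37), while the sterol exporter ABCG1 was at 2.14, 4.22 and 12.5 TPM and 13.9, 28.4 and 48.2 TPM (log2 difference 2.55 ± 0.27 (SE), adjusted p = 4.49e-11). Of 30 fatty acid genes 8 rose and 9 fell (4 and 13 with centring), with ELOVL7, a fatty acid elongase, and FADS1, a desaturase, at -2.09 and -1.43 and ACSL4, which activates arachidonic acid, at 1.64. In polyamine metabolism (5 of 17 rose and 4 fell, 2 and 6 with centring) the synthesis enzymes ODC1 (-1.07) and SRM (-0.94) fell while the catabolic AOC1 rose as given above.

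Many genes for making proteins fell, most of them by less than 1 on the log2 scale. Of 86 cytosolic ribosomal protein genes tested 82 fell, 13 of them called, and 3 rose, with a median of -0.79. With centring 82 fell and 1 rose, and on the values as deposited 61 fell and 2 rose. The summed ribosomal protein level was 72481 to 145540 TPM in ENZS (median 122075) and 139570 to 311000 TPM in PRE-CX (median 187900), overlapping slightly, with the highest value in PRE-CX mouse 111. These genes have many near-identical pseudogenes. Of 33 ribosome biogenesis genes 20 fell, 2 of them called, and 0 rose (28 and 0 with centring, 9 and 0 as deposited). NPM1, nucleophosmin, was among those that fell (-0.93). Of 77 mitochondrial ribosomal protein genes 44 fell and 7 rose, 68 and 3 with centring and 12 and 1 on the values as deposited. Of 82 nuclear genes of the respiratory chain 28 fell and 11 rose, 61 and 2 with centring and 3 and 2 as deposited, against 13.6% and 47.5% of all genes. Of 31 proteasome genes 9 fell and 2 rose (25 and 0 with centring, 1 and 0 as deposited).

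ENZS was next set beside castration without the drug. ENZS tumours also had a longer time since castration than POST-CX, and a return of PSA before treatment. CRPC tumours were collected after regrowth. Effects of the drug cannot be told apart from these differences. The comparisons share the ENZS tumours, so their differences are given side by side and are not independent. Against POST-CX 3546 genes were higher in ENZS (20.2% of those tested) and 1325 were lower (7.53%), and against CRPC 5519 were higher (31.4%) and 1128 lower (6.41%). Before rescaling, POST-CX mice 91 and 48 had human totals of only 27.9% and 59.7%. Their mitochondrial genome shares were 21.1% and 21.3%. Among mitosis genes 50 of 51 were lower in ENZS than in POST-CX and 51 than in CRPC, and of 46 DNA replication genes 39 and 38 were lower. UBE2C was lower in ENZS by 2.98 than in POST-CX (SE 0.48, adjusted p = 9.59e-06) and by 2.90 than in CRPC (adjusted p = 8.69e-06). RRM2, BIRC5 and NUSAP1, a spindle protein, were lower than in POST-CX by 2.88, 2.83 and 2.83, and MYC by 1.80 (adjusted p = 4.62e-05).

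Of the 58 genes in the larger androgen-induced list 7 were lower and 8 higher in ENZS than in POST-CX, against 7.53% and 20.2% of all genes, and 5 and 8 than in CRPC, against 6.41% and 31.4%. Of 29 androgen-repressed genes 2 were lower and 7 higher than in POST-CX, and 1 and 8 than in CRPC. Their summed level was already 2819, 3148 and 5183 TPM in POST-CX (lowest, median and highest), above the highest PRE-CX sum of 2031 TPM. KLK2 differed from POST-CX by -0.00 (adjusted p = 1) and KLK3 by 0.48 (adjusted p = 0.494), and from CRPC KLK2 differed by -1.22 (adjusted p = 0.0488) and KLK3 by -1.14 (adjusted p = 0.0429). NR3C1 differed from both, with 0.597 TPM in POST-CX, 0.626 TPM in CRPC and 3.54 TPM in ENZS as medians, and log2 differences of 1.62 (adjusted p = 0.000113) and 1.64 (adjusted p = 4.51e-05).

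Some rises over PRE-CX were also rises over POST-CX. The largest were BHLHE41 (3.12), a clock-regulated repressor, AMOTL1 (3.09), a binding partner of YAP, AOC1 (2.84), SYNE1 (2.68) and ZNF735 (2.67), a zinc finger gene that has close relatives. AMOTL1 was at 0.191, 0.757 and 8.89 TPM in POST-CX and 2.65, 17.7 and 49 TPM in ENZS. The pseudogene BCAP31P1 had the largest fall (-3.35). The shares of all genes that were higher, 20.2% against POST-CX and 31.4% against CRPC, apply here too. Of 30 endoplasmic reticulum folding genes 23 were higher in ENZS than in POST-CX and 21 than in CRPC. Among 52 lysosome and autophagy genes 27 and 34 were higher. Of 39 glycolysis and hypoxia genes 13 were higher than in POST-CX and 0 lower, and 6 were higher than in CRPC and 3 lower. Interferon and MHC class I genes were higher in 13 of 40 and lower in 1 against POST-CX. Against CRPC 20 were higher and 1 lower.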

How the data were processed

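The authors sequenced polyadenylated RNA of 54 tumours, trimmed reads (FastQC 0.11.9 and Trim Galore 0.6.5), aligned them with STAR 2.7.2b to human and mouse references combined, quantified with RSEM 1.3.3 and deposited TPM of human genes, versions per the submitters' processing notes. TPM hold no read depth. Here each tumour was rescaled to 1000000, since mouse transcripts take a varying share, and log2(TPM + 1) was fitted with limma 3.58.1 (R 4.3.3, trend option) as 5 group means over all 54 tumours, for the 17593 genes that reached 1 TPM in 8 tumours or more, with Benjamini-Hochberg adjustment within a comparison. Passing means an adjusted p under 0.05, and called also an absolute log2 difference of at least 1. The code was tested on simulated data. Measures of a library were compared by two-sided exact permutation of tumours in scipy 1.17.1. Promoter sequences are RefSeq's (GRCh38.p14), matched by symbol. Centring means subtracting each tumour's median log2 value.

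The comparison and the gene lists, written by hand, were chosen with earlier results of these data known, so no list is independent evidence of its direction. Genes were named by a rule: the 10 largest called rises and falls whose higher group averaged 5 TPM or more, up to 3 rises and 3 falls of smallest adjusted p in each list, members of the androgen lists that did not pass, and the 5 largest rises and falls against POST-CX that also passed against PRE-CX. Another 76 genes were chosen after their values were seen. Some results are not reported here. The promoters shown were chosen after the motif search. Alternatives changed the scale, pseudocount, filter, samples in the fit and variance model. The labels give no batch.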

Additional observations from a re-analysis of the deposited data

Results flagged for a closer look

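In PRE-CX, the only one of the groups compared small enough for the test used, the 9 tumours of each of 286 genes were examined for a lowest or highest value far from the rest by Dixon's gap test on the log2 scale, which chance alone passes in about 1 in 20 groups. It marked 25 values, 8 of them in mouse 112, 8 in mouse 111 and 9 in other mice. ENZS has 12 tumours and was not examined in this way. In mouse 112 KRT18 stood high at 813.4 TPM against a PRE-CX median of 460.2 TPM, as did SPDEF at 146.2 TPM (59.43), SLC43A1 at 116.9 TPM (37.92), MRPS18A at 104.7 TPM (50.03), WIPI1 at 30.34 TPM (9.75) and SGK1 at 22.31 TPM (6.07). In the same tumour AGPAT2 stood low at 15.95 TPM (21.97) and E2F5 at 8.776 TPM (13.02).

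Mouse 111, whose ribosomal protein sum was the highest of the group, was high for the ribosomal protein genes RPL27A at 3795 TPM (2082) and RPLP2 at 2625 TPM (1585) and for SNHG29 at 2012 TPM (880.8). It was low for CDKN1A at 16.14 TPM (52.07), EIF2AK3 at 16.59 TPM (35.73), STARD4 at 7.807 TPM (16.87), NCOA1 at 6.864 TPM (21.22) and ORM1 at 4.319 TPM (35.83). Mouse 53 was high for ABCG1 at 12.52 TPM (4.218) and SNHG31 at 3.821 TPM (1.292). High values were also found for COL3A1 at 3.103 TPM (0.8407) in mouse 58, LUM at 1.73 TPM (0.1743) in mouse 67, NR3C1 at 1.433 TPM (0.4182) in mouse 62, MET at 0.5503 TPM (0.1089) in mouse 4 and ZNF735 at 0.1067 TPM (0) in mouse 9. NR3C2 was low at 0.6626 TPM (2.15) in mouse 58 and OAZ2 at 73.11 TPM (90.44) in mouse 9. Leaving out the tumour concerned did not take any of these genes across the threshold.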

How the results depend on the processing

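The scale set the balance of rises and falls. With each tumour centred on its median 4679 genes rose and 4983 fell, and 909 were called higher and 990 lower. On the values as deposited 5189 rose and 1401 fell. Rescaling without mitochondrial genome and ribosomal protein genes, chosen after the data were seen, gave 7123 and 3361. A pseudocount of 0.1 gave 3250 genes called higher. Against POST-CX 4871 genes passed, and 7876 with sample quality weights. Against CRPC 6647 passed, 1529 on the values as deposited and 4413 with centring. Leaving out each tumour in turn gave 7755 to 8618 genes that rose, 2242 to 2410 that fell, 1714 to 2000 called higher and 516 to 572 called lower, with PRE-CX mouse 111 behind the lowest and PRE-CX mouse 53 behind the highest count of rises.

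Of 289 genes examined in this way, 250 passed, and 235 stayed on the same side of the threshold under all 33 alternatives run. A change of sign was counted only where the gene passed in the main or the alternative fit. Over all of these 9277 values were on the same side, 149 no longer passed and 72 passed newly. By that count 3 changed sign, all with centring, PSMC2 (-0.10), PSMD1 (-0.0500) and RPA2 (-0.0734). PSMC2 and PSMD1 also lost their pass without single tumours (adjusted p up to 0.116 and 0.146). The share of the 100 highest genes was lower in ENZS by 5.27 points (exact permutation p = 0.00203), while that of the 20 highest was higher by 1.22 points (exact permutation p = 0.348). Without both ENZS mouse 80 and PRE-CX mouse 111, chosen after the data were seen, the counts that rose and fell were 20 and 5 for androgen-repressed genes, 5 and 38 for the larger androgen-induced list and 30 and 1 for lysosome and autophagy genes, and all 51 mitosis genes fell.

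No paired analysis was possible because no mouse number occurs in more than 1 group. TPM carry no read depth, so no counting interval or floor is given, and a difference between genes near 0 TPM was not detectable with a known precision. Each tumour is its own mouse but all come from 1 cell line, so the errors describe the spread of this model only.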

Other observations

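By RefSeq class, 577 of 927 long noncoding RNA genes rose and 65 fell (median log2 difference 0.49), 5957 of 12431 protein-coding genes rose and 1873 fell (median 0.27), and among 567 plain pseudogenes 107 rose and 154 fell (median -0.04). Of 2104 numbered LINC genes 289 were tested, and of these 194 rose and 9 fell, 125 and 27 with centring. Host genes of small nucleolar RNAs went the other way, with 6 of 27 that rose and 10 that fell (2 and 14 with centring). Among all genes tested 47.5% rose and 13.6% fell. A gene was tested if it reached 1 TPM in 8 of the 54 tumours, whatever their group. Genes low in PRE-CX could therefore enter through the other groups alone, which favours rises among low genes. The size of this effect on the class counts was not tested.

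Of 431 numbered zinc finger genes, many of which encode DNA-binding repressors, 260 rose and 31 fell, and with centring 119 rose and 91 fell. The shares of all genes were again 47.5% and 13.6%. Of the 13 protein genes of the mitochondrial genome 2 rose and 0 fell, and 0 and 0 with centring. The mitochondrial genome made up 14.8% ± 2.91 of TPM in ENZS (SD, n = 12) and 13.8% ± 2.87 in PRE-CX (SD, n = 9; exact two-sided permutation test, p = 0.458). Of 4 metallothionein genes tested, which encode proteins that bind zinc and copper, 0 passed in limma and 0 had an unadjusted p under 0.05.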
